A study of Mus musculus with 14 samples.

Results

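The interaction between TFEB genotype and tumour material was measured in mouse bone marrow-derived macrophages: for each gene, the change with tumour material in TFEB-tg cells minus the change in TFEB-wt cells. All 14 arrays of the study enter it, and 285 of 17178 genes tested passed at an adjusted p under 0.05 (1.66%). Of these, 147 were positive (0.856% of genes tested), meaning a response to tumour material that was higher in transgenic cells, and 138 were negative (0.803%). Each gene was then sorted by whether its difference lies mainly in the control medium or with tumour material, or stays unresolved between them.

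All mice were female C57BL/6 animals aged 8 weeks with the LysM-Double-Cre genotype, which the TFEB-wt controls carry too. TFEB-tg mice had the TFEB transgene in addition, and LysM-driven Cre is active in macrophages and granulocytes. Marrow was differentiated for a week with recombinant M-CSF, the growth factor of macrophages, and the replated cells were given DMEM only (control) or DMEM with lysate of the mouse mammary tumour line EO771 and serum-free medium taken from those cells (ECM, here tumour material) for 24 h. The groups are TFEB-wt control (3 replicates on 4 arrays), TFEB-wt tumour material (3 on 4), TFEB-tg control (3 on 3) and TFEB-tg tumour material (2 on 3). The labels call the replicates biological and do not say how many mice gave each. TFEB-tg tumour replicate 1 is not analysed here.

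TFEB is a transcription factor of the MiT/TFE family that moves to the nucleus when the kinase mTORC1 is inactive and switches on genes of lysosomes and autophagy. In macrophages it is also linked to lipid breakdown and to cytokine output. Material from tumour cells pushes cultured macrophages toward a mixed state in which inflammatory cytokines, hypoxia genes and markers of alternative activation such as Arg1 appear together. An interaction term asks whether the genotype alters that shift, and it can differ from 0 for separate reasons: the genotypes may start apart in plain medium and meet with tumour material, or start alike and part with tumour material.

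Levels are log2 of a probe's signal divided by the 75th percentile of its array, so a difference of 1 is 2-fold. Where a gene had several probes, the brightest stood for it, SE values come from the fit, and every adjusted p is from limma with Benjamini-Hochberg adjustment over all genes tested. In the text below, the gap is the TFEB-tg level minus the TFEB-wt level in the same medium. Over all genes tested the median interaction was 0.02, and the median gap was −0.04 in control medium and −0.02 with tumour material.

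Over the arrays the signal had a 75th percentile of 83.0 to 142, 35.5% to 40.2% of spots were well above background, and 0 spots were saturated. TFEB-tg control replicate 1 stood apart, with a correlation of 0.975 to replicate 2 and 0.969 to replicate 3, against 0.979 between those. The arrays sat on 2 slides, and slide 1 held no TFEB-tg tumour array, so slide 1 alone gives no interaction. Slide column 4 held transgenic arrays only: TFEB-tg tumour replicate 3 in its repeat run, and from the control group replicates 1 and 2. The root mean square of their fitted spatial trend, which the extraction software reports, was 0.253 to 0.331, against 0.0964 to 0.126 on the other arrays. That repeat array had 270 outlier spots (166 to 215 on the others) and correlated at 0.978 with the first array of its replicate. Slide 2 held 3 TFEB-tg tumour arrays, 2 of them of the same replicate, and 1 array of each other group. Fitted to slide 2 alone, all 285 genes kept the sign of their interaction, with a median size of 1.65 in place of 1.72. Its arrays are part of the main fit, so the shared signs are no independent support. The spread there comes from the TFEB-tg tumour arrays alone, so no count of passing genes is given. Without TFEB-tg control replicate 1 the count rose to 1221 (7.11% of genes tested; 658 positive, 3.83%, and 563 negative, 3.28%), and all 285 genes were among them. The count fell to 44 without TFEB-tg tumour replicate 3 and to 46 without TFEB-wt tumour replicate 3, with 39 and 45 of the 285 among them. All 285 kept their sign in both cases, with a median size of 1.63 and 1.60 in place of 1.72, and without the first of these the TFEB-tg tumour group has 1 sample. Only 26 of the 285 genes passed whichever of the 11 replicates was left out.

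Both the treatment of repeat arrays and the background correction bear on what follows. With a within-replicate correlation of 0.061, the fit counts a repeat array nearly as a sample of its own. With repeat arrays averaged first, 77 genes passed, 73 of them among the 285, with a median size over the 285 of 1.68. Of the 55 called genes that the naming rule gives, 22 kept their call then, among them Birc5, Ccnb2, Mki67, Ska1, Il1b, Nxpe5, Mmp12, Arg1, Il10, Angptl4, H19, Lum, Fabp4, Dhcr7, Htra1, Spaca9, Phgdh, Chac1, Gbp8, Iqgap3 and Mybl2. The other calls of named genes below were lost. With normexp background correction, 192 of the 285 passed and 284 kept their sign, but the median size was 1.09, so the size of an interaction in dim genes depends on this choice. Slide column 4 as a further term left 202 genes, 187 of them among the 285. Among the named calls lost with that term were Chtf18, Sgo1, Rrm2, Flrt3, Cd40, H19, Myh3 and Chrna1. Orm2, Htra1, Gbp8, Relt, Lpl, Spp1 and Mgl2 were lost with it too.

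Tfeb itself did not pass. In TFEB-wt replicates its level was 0.99, 0.82 and 0.89 in control medium and −0.71, −0.69 and −0.60 with tumour material, and in TFEB-tg replicates 1.35, 1.36 and 0.86, then 0.01 and −0.12. The transgenic control values overlap the wild-type ones in 1 replicate, while with tumour material the transgenic values lie above all wild-type ones. The interaction was 0.39 (SE 0.20, adjusted p = 0.49). The sources used here do not say whether the Tfeb probe reads the transgene. Its relative Mitf, the factor that also drives melanocyte and osteoclast genes, did pass: it stood at 5.74, 5.87 and 5.74 in wild-type control, 5.65, 5.55 and 5.54 in wild-type tumour, 5.35, 5.30 and 5.26 in transgenic control and 5.87 and 5.79 in transgenic tumour replicates. Mitf therefore rose with tumour material in transgenic cells only by the test of each response (0.56, adjusted p = 0.00259, against −0.20, adjusted p = 0.0752), and the difference was 0.76 (SE 0.14, adjusted p = 0.0153). That call was lost with repeat arrays averaged (adjusted p = 0.124), without TFEB-wt tumour replicate 3 (0.201) or TFEB-tg tumour replicate 3 (0.131), and with normexp background correction (0.217). The other relatives Tfe3 (0.35, SE 0.48, adjusted p = 0.861) and Tfec (0.64, SE 0.22, adjusted p = 0.224) did not pass, and Mitf was the only called member of 13 tested MiT/TFE factors and nutrient regulators.

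Of the 285 genes, 73 were set by the control groups, 90 by the tumour-material groups, and 122 stayed unresolved. A gene counted as control-side where the sum of both gaps passed (adjusted p under 0.05) with the sign opposite to the interaction, so that the gap in control medium was the larger one, and as tumour-side where it passed with the same sign. The 29 negative control-side genes had a median gap of 2.21 in control medium and −0.01 with tumour material, and the 44 positive ones −2.11 and −0.09. The 52 negative tumour-side genes had −0.10 and −2.20, and the 38 positive ones 0.02 and 1.34. These medians describe the sort and are no test of it. In the 122 unresolved genes the gaps had opposite signs, as the sort makes likely, with medians of 0.73 and −0.76 in the 57 negative and −0.79 and 0.83 in the 65 positive ones. Sorted by size alone, with 1 gap at least 2 times the other, 21 of the unresolved genes fell to the control groups, 31 to the tumour-material groups and 70 to neither. Without TFEB-tg control replicate 1, 257 of the 285 genes kept their place, 27 unresolved ones were resolved, 1 became unresolved and 0 crossed from one side to the other.

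**Figure D1:**
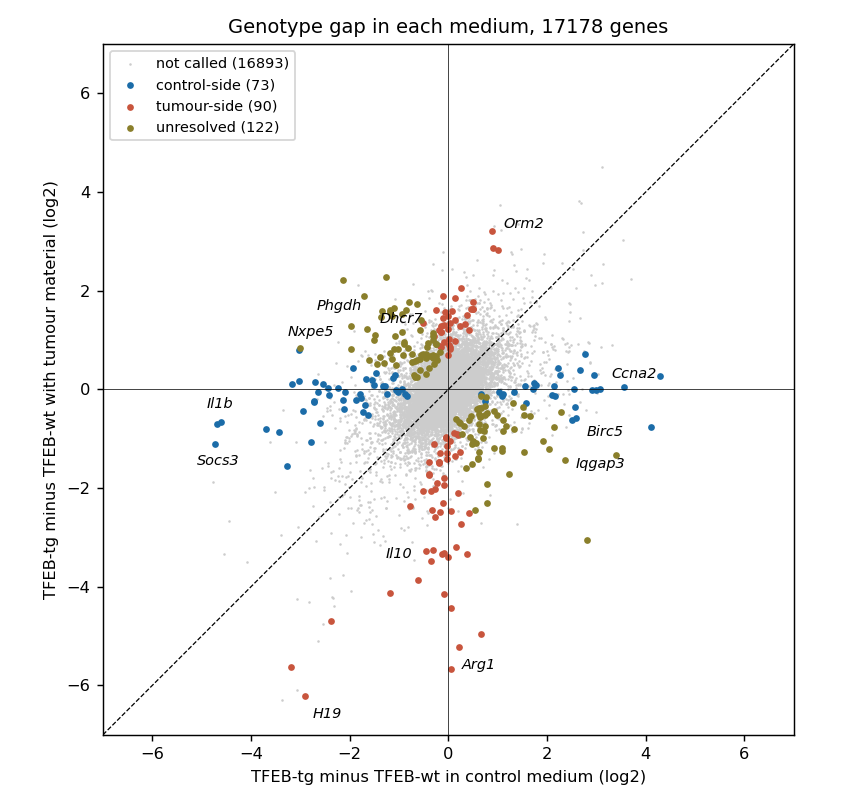
Each point is a gene, with the TFEB-tg minus TFEB-wt difference in control medium on the horizontal axis and with tumour material on the vertical axis (both log2); coloured points are the 285 genes with an interaction by side and grey points all others tested, and on the dashed diagonal both gaps are equal. Most control-side genes lie near the horizontal axis, most tumour-side genes near the vertical axis with Arg1 at −5.66 (H19, at −2.90 and −6.22, lies off it), and unresolved genes in the 2 quadrants where the gaps have opposite signs.

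For 65 of the 285 genes no array of at least 1 group was above background, so that group has only an upper bound. With such groups set at their bound, the median size of the interaction over the 285 genes was 1.51 in place of 1.72, and 0 changed sign. Some of the widest fitted values are among these genes, which were chosen here after their values were seen. Il19, a cytokine of the IL-10 family, had a fitted interaction of −5.63 (adjusted p = 0.00117), or −3.52 at the bound, and Gipr, an incretin receptor, −5.45 (adjusted p = 9.87e-05), or −3.27 at the bound. Both were tumour-side genes with 3 dim groups. The myeloid receptor Cd300e, an unresolved gene with 2 dim groups, had −5.86 (adjusted p = 0.00462), or −3.65 at the bound, and the mitotic kinase Pbk, a control-side gene with 3 dim groups, −4.87 (adjusted p = 0.00444), or −3.55 at the bound.

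By the test of each genotype's own response, 70 of the 285 genes rose in both genotypes and 39 fell in both. Another 39 rose in wild-type cells without passing in transgenic ones, and 56 fell likewise. In transgenic cells alone 23 rose and 32 fell. In 17 genes the wild-type response was a rise and the transgenic one a fall, and in 9 the reverse. Across all genes tested, tumour material raised 22.7% and lowered 16.9% in wild-type cells, and raised 14.8% and lowered 10.1% in transgenic cells, where 1 group has 2 replicates.

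**Figure D2:**
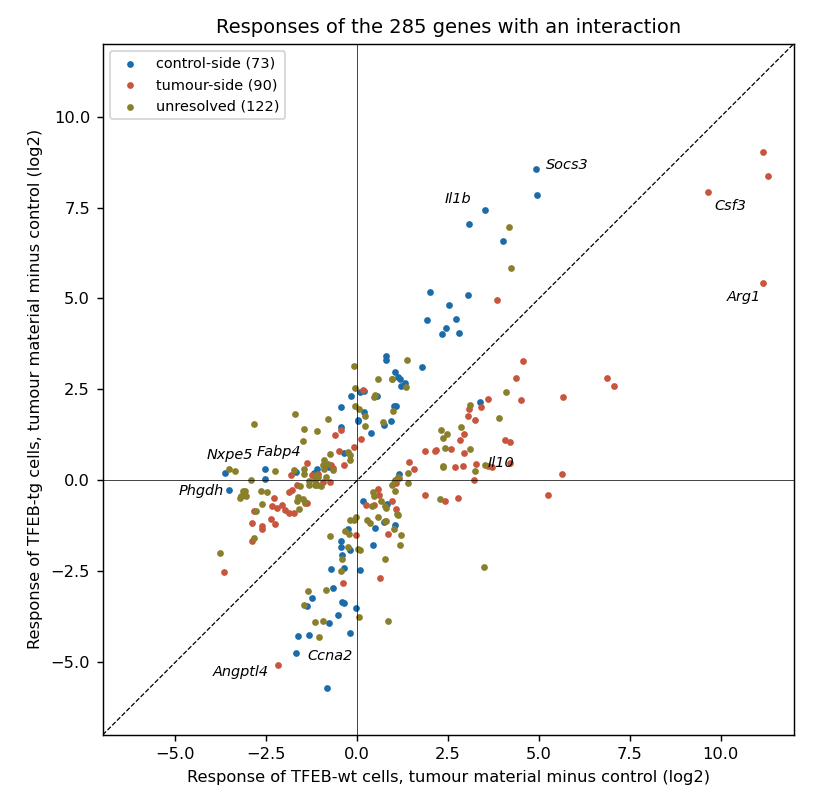
Each point is 1 of the 285 genes with an interaction, with its response to tumour material in TFEB-wt cells on the horizontal axis and in TFEB-tg cells on the vertical axis (both log2 differences, tumour material minus control), coloured by side; on the dashed diagonal both responses are equal. Il1b and Socs3 rose more in transgenic cells, at 7.44 and 8.55, and Arg1 rose less, at 5.44 against 11.16.

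Of the 29 negative control-side genes, 9 belong to a list of mitosis and spindle genes. Genes of that list were higher in transgenic than in wild-type cells in plain medium and no different past the threshold with tumour material. Of 22 tested mitosis and spindle genes, 11 had a negative interaction and 0 a positive one (0.803% and 0.856% of all genes tested), 9 of them control-side and 2 unresolved. The array held 28 genes of the list, and only those above background on every array of some group were tested. Pbk, Aunip, Ska1 and Bub1, with 3 dim groups each, entered through the transgenic control group alone, where they are high. That filter favoured a gap in control medium and a negative interaction for them, and all of them are among the 9 control-side genes. The counts and medians of the list include these genes, so their distance from the shares of all genes tested is partly set by the filter. The median interaction of the list was −2.12, with a median gap of 2.16 in control medium and 0.12 with tumour material. In control medium 18 of the 22 were higher in transgenic cells (3.34% of genes tested) and 0 lower (5.18%), and with tumour material 0 were higher (1.82%) and 0 lower (2.50%) by limma (1 and 1 at an unadjusted p under 0.05). All 22 fell with tumour material in transgenic cells (10.1% of genes tested), and 12 of 22 did in wild-type cells (16.9%).

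The list median by replicate shows where the genotypes parted. Relative to the wild-type control mean, the list median was −0.09, 0.14 and −0.02 in wild-type control replicates and −0.75, −0.79 and −0.80 in wild-type tumour replicates. It was 1.35, 2.73 and 2.73 in transgenic control replicates 1, 2 and 3, and −0.75 and −0.79 in transgenic tumour replicates. The genotypes thus met at one level with tumour material, and transgenic control replicate 1 lay between the wild-type controls and its own group. Without that replicate 17 of the 22 genes passed, all negative (3.28% of genes tested), and the median interaction was −2.47. Within slide 2 the median was −2.36. A bulk array cannot tell apart a larger share of dividing cells and more of these transcripts per cell.

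Birc5 encodes survivin, which guides the chromosomal passenger complex in mitosis. It stood at 1.57, 2.00 and 1.84 in wild-type control, 1.23, 1.17 and 1.36 in wild-type tumour, 3.65, 4.90 and 4.70 in transgenic control and 1.05 and 0.75 in transgenic tumour replicates. The transgenic control group stood highest, and the interaction of Birc5 was −3.16 (SE 0.40, adjusted p = 0.00225). The mitotic cyclin Ccnb2 showed the same order, at 1.15, 1.27 and 1.21, then 0.32, 0.58 and 0.42, then 2.83, 4.19 and 4.18, and last 0.20 and −0.25 in the same groups. Its gap was 2.51 in control medium (adjusted p = 0.000321) and −0.63 with tumour material (adjusted p = 0.355), an interaction of −3.14 (SE 0.43, adjusted p = 0.00378). Ccna2, the cyclin of S phase and early mitosis, had an interaction of −3.07 (SE 0.54, adjusted p = 0.0146), with a gap of 3.08 in control medium and 0.01 with tumour material. Mki67, the widely used proliferation marker, was at 2.90, 3.28 and 3.24 in transgenic control and between 0.94 and 1.53 in all other replicates (interaction −1.73, SE 0.24, adjusted p = 0.00379). Ska1, a kinetochore gene, was above background in the transgenic control group alone, at least 3.45-fold above wild-type control (fitted interaction −3.50, SE 0.34, adjusted p = 0.000388, or −2.08 with the dim groups at their bound).

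Without TFEB-tg tumour replicate 3 the calls of Birc5 (adjusted p = 0.0624), Ccnb2 (0.127) and Ccna2 (0.238) were lost. Without TFEB-wt tumour replicate 3 those of Ccnb2 (0.0566), Ccna2 (0.201) and Mki67 (0.0827) were lost, and without TFEB-tg control replicate 3 that of Ccna2 (0.0564). Averaging repeat arrays also ended the call of Ccna2 (0.164). The call of Ska1 held without any 1 of the 11 replicates, but its interaction was −0.83 with normexp background correction (adjusted p = 0.0243).

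Promoters of control-side genes are shown because the mitotic genes moved together. RefSeq windows (build GRCm38.p6) from 250 bases before to 50 after a gene's start were held for 189 of the 242 interaction genes with a symbol, and both strands were searched for the motifs named here. CCAAT, the box bound by NF-Y, was in the windows of 17 of 22 negative control-side genes (77.3%), against 42.7% of 8848 tested genes with a window and 41.1% of all 27025 genes with one. Of the 22 genes, Aunip, Bub1 and Dtl were above background in the transgenic control group alone and were tested only for that reason. TTTGAA, the core of the cell cycle homology region, was in 6 of 22 (27.3%) against 14.5% of tested genes and 20.2% of all, and in 10 of the 17 mitosis list genes with a window (58.8%). TTTCGCGC, an E2F site, was in 0 of the 22 (0.8% of tested genes) but in 6 of the 24 DNA replication list genes with a window. Where a gene had several windows, here and for the later sequences, the one with the most matches is printed. The stretches below, of chosen lengths, end at the base before the start, with CCAAT and TTTGAA on either strand in capitals. They are Ccnb2 (chr9:70421555-70421734, minus strand, 180 bases), Mki67 (chr7:135716380-135716579, minus strand, 200 bases), Bub1, a spindle checkpoint kinase (chr2:127831860-127831959, minus strand, 100 bases), and Cdc20, the activator of the anaphase-promoting complex (chr4:118437344-118437443, minus strand, 100 bases).
Ccnb2: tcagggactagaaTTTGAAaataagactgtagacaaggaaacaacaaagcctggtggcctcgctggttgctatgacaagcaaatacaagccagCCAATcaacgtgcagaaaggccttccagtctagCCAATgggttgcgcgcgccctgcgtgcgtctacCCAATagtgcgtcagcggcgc
Mki67: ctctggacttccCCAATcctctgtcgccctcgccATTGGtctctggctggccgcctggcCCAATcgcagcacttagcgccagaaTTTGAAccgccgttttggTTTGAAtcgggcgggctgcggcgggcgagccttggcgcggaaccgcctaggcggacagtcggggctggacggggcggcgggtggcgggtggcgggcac
Bub1: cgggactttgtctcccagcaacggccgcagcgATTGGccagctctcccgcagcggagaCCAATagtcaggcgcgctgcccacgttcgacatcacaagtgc
Cdc20: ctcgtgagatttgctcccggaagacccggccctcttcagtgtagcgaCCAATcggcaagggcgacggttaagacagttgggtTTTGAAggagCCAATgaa
Ccnb2 has 3 CCAAT boxes and 1 TTTGAA in that stretch, Mki67 3 and 2, Bub1 2 and 0, and Cdc20 2 and 1. Bub1 was a control-side gene and Cdc20 an unresolved one, and both are shown for their promoters. Such matches describe the letters of a window and do not show that a factor binds there.

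DNA replication genes had fewer calls. Of 29 tested genes of DNA replication and S phase, 3 had a negative interaction and 0 a positive one (0.803% and 0.856% of genes tested), with a median of −0.79. In control medium 15 of the 29 were higher in transgenic cells (3.34% of genes tested) and 0 lower (5.18%), and with tumour material 0 were higher (1.82%) and 1 lower (2.50%). Rrm2, a subunit of ribonucleotide reductase, was control-side: it stood at 0.89, 1.47 and 1.10 in wild-type control, −0.19, −0.27 and −0.28 in wild-type tumour, 3.00, 4.48 and 4.31 in transgenic control and 0.66 and 0.51 in transgenic tumour replicates. The groups did not overlap, and the fall with tumour material was larger in transgenic cells by 2.06 (interaction −2.06, SE 0.46, adjusted p = 0.0488). That call was lost when any of 9 of the 11 replicates was left out, up to an adjusted p of 0.342, and with repeat arrays averaged (0.232). Mcm7, part of the replicative helicase, was unresolved (−2.06, SE 0.37, adjusted p = 0.0153). Its call was lost without TFEB-tg tumour replicate 3 (adjusted p = 0.133), TFEB-wt tumour replicate 3 (0.142) or TFEB-tg control replicate 3 (0.0563), and with repeat arrays averaged (0.0956). Without TFEB-tg control replicate 1, 15 of the 29 genes had a negative interaction (3.28% of genes tested).

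Other negative control-side genes of the size ranking were Mns1, a cilium and flagellum protein (−2.27, SE 0.36, adjusted p = 0.0072), Chtf18, part of a clamp loader that acts in sister chromatid cohesion (−2.21, SE 0.44, adjusted p = 0.0263), and Sgo1, the protector of centromeric cohesion (−2.06, SE 0.46, adjusted p = 0.0468). Mns1 rose in wild-type cells by 1.03 and fell in transgenic cells by 1.24. All 3 calls were lost without TFEB-tg tumour replicate 3 (adjusted p from 0.128 to 0.534) or TFEB-wt tumour replicate 3 (0.112 to 0.352). Chtf18 was also lost without 4 other replicates and Sgo1 without 5 others. The interactions were −1.05 for Mns1, −1.09 for Chtf18 and −1.23 for Sgo1 with normexp background correction, and all 3 calls were kept.

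Markers of other cells differed between groups in unlike ways: the progenitor sum was highest in the transgenic control group, and the neutrophil sum, in which Lcn2 counts, was not. The summed level of 10 myeloid progenitor markers, on the linear scale of signal over the 75th percentile, was 25.3, 20.3 and 19.4 in transgenic control replicates, against 7.93 to 8.70 in wild-type control, 5.06 to 6.99 in wild-type tumour and 9.54 to 10.0 in transgenic tumour replicates. Flt3 was above background on no array, and by limma 0 of the 8 tested progenitor markers had a called interaction (3 at an unadjusted p under 0.05). In control medium 5 of the 8 were estimated higher in transgenic cells. Past the threshold 2 were higher (3.34% of genes tested) and 0 lower (5.18%). The list median, relative to the wild-type control mean, was 0.51, 0.50 and 0.43 in transgenic control replicates, so the sum is not shared by all markers. The sum of 12 neutrophil markers was 751 in transgenic control replicate 1 and 205 and 237 in replicates 2 and 3. It was 330 to 402 in wild-type control, 773 to 1070 in wild-type tumour and 329 to 464 in transgenic tumour replicates. Lcn2 counts in it and in the sum of 10 epithelial and mammary tumour markers, 8 of them above background nowhere. That second sum was 677 to 946 in wild-type tumour and 271 to 395 in transgenic tumour replicates. In control medium it was 90.4 to 154 in wild-type replicates and 167, 25.3 and 37.9 in transgenic ones. The neutrophil sum does not stand for its list: 7 of the 11 tested markers fell and 2 rose with tumour material in wild-type cells. Relative to the wild-type control mean, the list median was −1.93, −1.62 and −1.09 in wild-type tumour replicates. It was 2.04, −0.66 and −0.30 in transgenic control and −2.52 and −2.41 in transgenic tumour replicates. The median interaction of the 11 tested neutrophil markers was −1.15, and 0 passed by limma (7 at an unadjusted p under 0.05). The sum of 18 macrophage markers stayed between 2710 and 3890 over all replicates, with all 18 above background somewhere. The part of other cells in the cell division result was not tested.

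**Figure D3:**
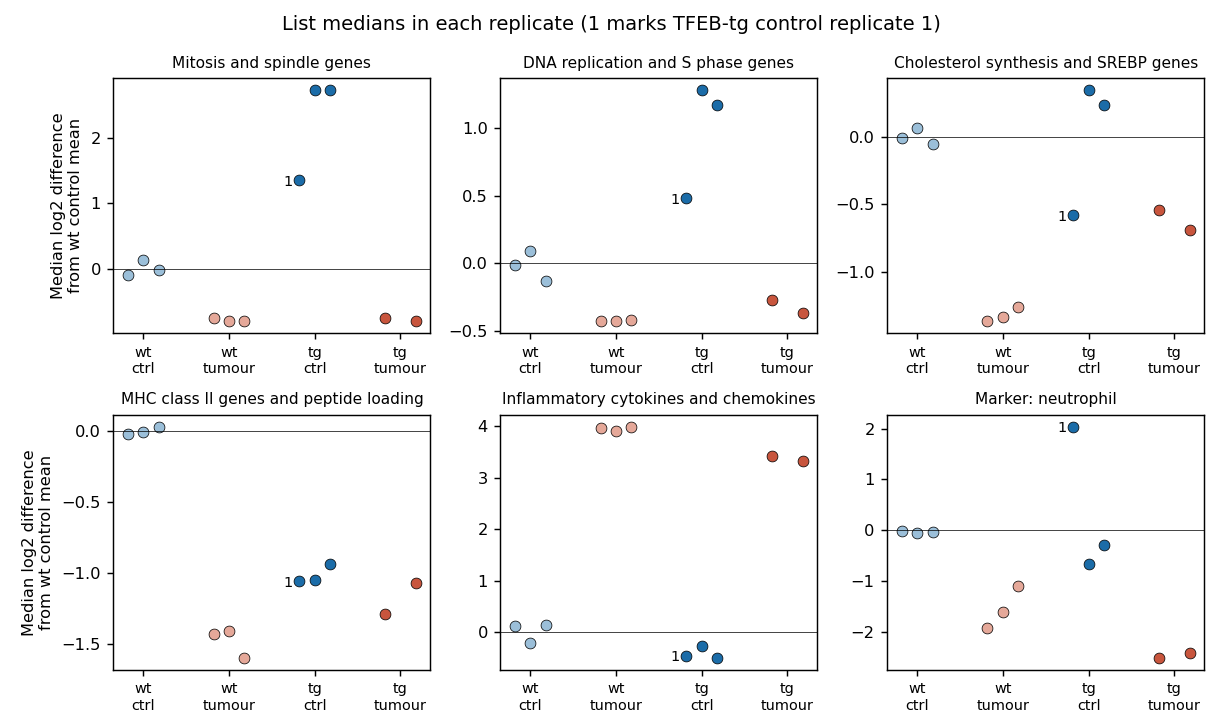
Each point is the median, over the tested genes of a list, of the log2 difference from the gene's wild-type control mean in 1 replicate, with the 4 groups along the horizontal axis (wt and tg for TFEB-wt and TFEB-tg, ctrl and tumour for the medium) and replicate 1 of the transgenic controls marked. Mitosis genes stand at 1.35 to 2.73 in transgenic controls and at −0.75 to −0.80 in both tumour groups, and sterol genes at −0.54 and −0.69 in transgenic against −1.26 to −1.37 in wild-type tumour replicates.

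Of the 44 positive control-side genes, 27 rose with tumour material in both genotypes, 9 rose in transgenic cells without a called wild-type response, and 8 fell in wild-type cells without a called transgenic one. Il1b, the inflammatory cytokine, stood at 2.30, 1.45 and 2.18 in wild-type control and −1.63, −3.19 and −2.95 in transgenic control replicates, where 1 of 3 arrays was above background. With tumour material it stood at 5.48, 5.50 and 5.55 in wild-type and 4.75 and 4.83 in transgenic replicates. The gap of −4.60 in control medium (adjusted p = 1.87e-05) shrank to −0.67 (adjusted p = 0.394), and Il1b rose by 7.44 in transgenic and by 3.50 in wild-type cells, an interaction of 3.94 (SE 0.49, adjusted p = 0.00222). Socs3, which inhibits signalling of gp130 cytokines and G-CSF, stood at 3.77, 2.29 and 3.50, then 7.43, 8.82 and 8.24, then −1.09, −1.73 and −1.55, and last 7.10 and 7.23 in wild-type control, wild-type tumour, transgenic control and transgenic tumour replicates. Its interaction was 3.62 (SE 0.57, adjusted p = 0.00708), with a gap of −1.10 left with tumour material.

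Spint1, a membrane inhibitor of serine proteases, had an interaction of 3.99 (SE 0.57, adjusted p = 0.00442). It was above background on no transgenic control array and at least 15.8-fold lower there than in wild-type control. Its other probe gave 1.98. Ly6a, the Sca-1 antigen that interferons induce, stood at 4.75, 4.27 and 4.66 in wild-type control against 2.61, 0.71 and 1.31 in transgenic control replicates, and between 6.43 and 6.73 in all tumour replicates. Its interaction was 3.19 (SE 0.52, adjusted p = 0.00859). Flrt3, an adhesion molecule, was dim in transgenic control too, at least 10.3-fold below wild-type (2.90, SE 0.54, adjusted p = 0.0193). Of its 3 probes another gave 0.05, so its value rests on the choice of probe.

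Nxpe5 differed from these in kind. It stood at 3.32, 2.95 and 3.39 in wild-type control, −0.20, −0.19 and −0.59 in wild-type tumour, 0.14, 0.40 and 0.13 in transgenic control and 0.64 and 0.34 in transgenic tumour replicates. It fell by 3.64 in wild-type cells (adjusted p = 1.53e-08), while the transgenic response was 0.19 (adjusted p = 0.56), an interaction of 3.83 (SE 0.26, adjusted p = 3.33e-05). Its call held without any 1 replicate. Il1b lost its call without TFEB-tg tumour replicate 3 (adjusted p = 0.0624). With normexp background correction the interactions were 1.93 for Il1b, 2.18 for Socs3, 1.57 for Spint1 and 0.86 for Flrt3, and the calls of Socs3 (adjusted p = 0.063) and Flrt3 (0.0755) were lost. With repeat arrays averaged the calls of Socs3 (0.113), Spint1 (0.0896), Ly6a (0.125) and Flrt3 (0.213) were lost. Socs3, Spint1, Ly6a and Flrt3 did so without that replicate (0.137, 0.105, 0.128 and 0.225) or without TFEB-wt tumour replicate 3 (0.0905, 0.0843, 0.128 and 0.208), and Flrt3 also without 3 others. With the median of a gene's probes Flrt3 was at 1.52 (adjusted p = 0.1).

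Of 21 tested NF-kB subunits, inhibitors and targets, 2 had a positive interaction, Socs3 and the costimulatory receptor Cd40, and 0 a negative one (0.856% and 0.803% of genes tested). In control medium 8 of the 21 were lower in transgenic cells (5.18% of genes tested) and 0 higher (3.34%), and with tumour material 1 was lower (2.50%). Cd40 stood between 1.16 and 1.28 in wild-type control, between −0.45 and 0.44 in transgenic control and between 2.38 and 2.72 in all tumour replicates (1.35, SE 0.28, adjusted p = 0.0361). Of 19 tested matrix proteases and inhibitors, 3 had a positive interaction and 0 a negative one (0.856% and 0.803% of genes tested). Their median gap was −1.25 in control medium and −0.15 with tumour material. The macrophage elastase Mmp12 stood at 4.57, 4.51 and 4.92 in wild-type control, 3.34, 3.26 and 3.20 in transgenic control, and between 5.11 and 5.73 with tumour material in both genotypes (1.79, SE 0.25, adjusted p = 0.00369). Mmp14, the membrane-bound collagenase, showed the same order with a gap of −1.55 in control medium and 0.18 with tumour material (1.73, SE 0.35, adjusted p = 0.031). Mmp12 lost its call without TFEB-wt tumour replicate 3 (adjusted p = 0.0802), Mmp14 without any of 6 replicates (up to 0.329) and Cd40 without any of 9 (up to 0.269). Mmp14 was at 1.08 (adjusted p = 0.032) with normexp background correction, which ended the call of Cd40 (0.057).

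The STAT motif TTCNNNGAA was in the windows of 4 of 31 positive control-side genes (12.9%) against 8.5% of tested genes, and the NF-kB motif GGGANTTCC in 0 of 31 (2.7% of tested genes). The interferon-stimulated element was in 1 of 31 (3.2% against 4.0%). Socs3 holds the STAT motif in the 170 bases before its start (chr11:117969367-117969536, minus strand), shown with the motif in capitals because the gene has the largest gap among named genes of the group.
Socs3: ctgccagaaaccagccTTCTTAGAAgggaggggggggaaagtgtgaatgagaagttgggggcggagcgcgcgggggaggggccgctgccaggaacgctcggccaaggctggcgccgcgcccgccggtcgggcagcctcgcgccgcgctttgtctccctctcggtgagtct

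Of the 52 negative tumour-side genes, 23 rose in both genotypes, 21 rose in wild-type cells without a called transgenic response, and 3 rose in wild-type and fell in transgenic cells. Another 4 fell in transgenic cells alone, and 1 fell in both. Arg1 encodes the arginase of alternatively activated macrophages. It was above background on no control array of either genotype. With tumour material it stood at 6.62, 6.62 and 6.49 in wild-type and 0.87 and 0.50 in transgenic replicates, a rise of at least 668-fold and at least 18.3-fold over the respective controls. The gap with tumour material was −5.66 (SE 0.22, adjusted p = 9.96e-08) and the interaction −5.72 (SE 0.28, adjusted p = 1.39e-06), or −5.19 with both control groups at their bound. The groups with tumour material were far apart, and the call held without any 1 replicate.

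Il10, the anti-inflammatory cytokine, stood at −0.31, 0.04 and 0.11 in wild-type control and −0.76, −0.16 and −0.46 in transgenic control replicates. With tumour material it reached 3.08, 3.08 and 3.46 in wild-type cells and 0.40 and −0.04 in transgenic cells. It rose by 3.28 in wild-type cells (adjusted p = 1.16e-07), whereas the transgenic response was 0.46 (SE 0.24, adjusted p = 0.2), an interaction of −2.82 (SE 0.30, adjusted p = 0.000878) that held without any 1 replicate. Csf3, which encodes G-CSF, was dim in both control groups and stood at 5.03, 5.08 and 5.19 in wild-type against 3.23 and 3.03 in transgenic tumour replicates (−1.70, SE 0.28, adjusted p = 0.00885). Its call was lost without TFEB-tg tumour replicate 3 (adjusted p = 0.131) or TFEB-wt tumour replicate 3 (0.17). These were 2 of the 4 called genes among 30 tested inflammatory cytokines and chemokines (1.66% of genes tested were called). The others had a positive interaction: Il1b above, and Csf1, the gene of M-CSF, which was unresolved (2.11, adjusted p = 0.036) and was chosen after its value was seen, to complete the count. The list's median gap was −0.38 in control medium and −0.51 with tumour material, and its median interaction was −0.32. In each medium 6 of 30 were lower and 0 higher in transgenic cells. Of all genes tested, 5.18% were lower and 3.34% higher in control medium, and 2.50% and 1.82% with tumour material.

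Il6, Tnf and Nos2 rose strongly in both genotypes without an interaction past the threshold. Il6 stood at 5.75, 5.72 and 6.00 in wild-type and 3.22 and 3.07 in transgenic tumour replicates, but it was lower in transgenic cells in control medium as well, where every transgenic array was dim. Its interaction was −0.78 (SE 0.25, adjusted p = 0.178), and −1.93 with the dim group at its bound. With normexp background correction it passed (adjusted p = 0.000121). Tnf had −0.19 (SE 0.28, adjusted p = 0.878) and Nos2, the inducible nitric oxide synthase, −0.36 (SE 0.49, adjusted p = 0.864), and the sign for Nos2 turned without TFEB-tg control replicate 1 (0.02) or within slide 2 (0.36).

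Angptl4, an inhibitor of lipoprotein lipase and a PPAR and hypoxia target, was a fall that went further. It stood at 3.18, 3.74 and 2.98 in wild-type control, 1.18, 1.03 and 0.98 in wild-type tumour, 3.63, 3.57 and 3.65 in transgenic control and −1.95 and −1.40 in transgenic tumour replicates. The controls overlapped in range, and the fall was 5.09 in transgenic against 2.18 in wild-type cells (interaction −2.91, SE 0.30, adjusted p = 0.0006), held without any 1 replicate and at −1.91 with normexp background correction. Bnip3, a mitophagy receptor induced by hypoxia, rose by 2.59 in wild-type and by 0.85 in transgenic cells (interaction −1.74, SE 0.34, adjusted p = 0.0236). It was the only called gene of 32 tested hypoxia and glycolysis genes (1.66% of genes tested were called). In that list 25 of 32 estimates were negative, with a median interaction of −0.33. In control medium 5 were lower (5.18% of genes tested) and 0 higher (3.34%) in transgenic cells, with a median gap of −0.29, and with tumour material 7 were lower (2.50%) and 0 higher (1.82%). The Bnip3 call was lost without any of 6 replicates (adjusted p up to 0.217).

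H19, a long noncoding RNA of growing tissue, and the muscle genes Myh3, an embryonic myosin, and Chrna1, an acetylcholine receptor subunit, had gaps in both media. H19 stood between 1.90 and 2.24 in wild-type control, at 2.25, 1.98 and 3.44 in wild-type tumour, at −1.68, −0.89 and 0.50 in transgenic control and at −3.48 and −2.41 in transgenic tumour replicates. Its interaction was −3.32 (SE 0.74, adjusted p = 0.0494), lost without any of 9 replicates (up to 0.31), and −1.66 with normexp background correction (adjusted p = 0.0393). Myh3 (−2.44, SE 0.53, adjusted p = 0.0439) and Chrna1 (−2.32, SE 0.51, adjusted p = 0.0449) were dim on every transgenic tumour array. With that group at its bound the interactions were −0.37 and −0.38, and the calls were lost without any of 8 replicates each, up to 0.426 and 0.451. They were also lost with normexp background correction, at −0.46 (adjusted p = 0.754) and −0.64 (0.291). With the median of a gene's probes H19 (0.0507) and Myh3 (−1.48, adjusted p = 0.294) did not pass.

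Lum, the collagen-binding proteoglycan lumican, was dim in both control groups and stood at 2.14, 2.36 and 2.39 in wild-type and −1.97 and −2.14 in transgenic tumour replicates (−4.48, SE 0.21, adjusted p = 1.39e-06, or −3.64 at the bound), a call that held without any 1 replicate and at −2.83 with normexp background correction. It is 1 of 9 fibroblast markers on the array, of which Pdgfra and Postn were above background nowhere. Their summed level was 34.1 to 44.5 in wild-type tumour and 8.84 to 9.85 in transgenic tumour replicates. It was 22.1, 1.85 and 23.8 in wild-type control and 10.1, 1.37 and 4.83 in transgenic control replicates. Lum was the only called gene of 6 tested fibroblast markers. Of 10 epithelial and mammary tumour markers, 8 were above background nowhere, among them Epcam, Cdh1, Krt8 and Krt18, and the others were Lcn2, which myeloid cells also make, and Esr1. The share of tumour cell RNA in the values was not tested, nor was the part of fibroblasts in Lum, H19, Myh3 and Chrna1.

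**Figure D4:**
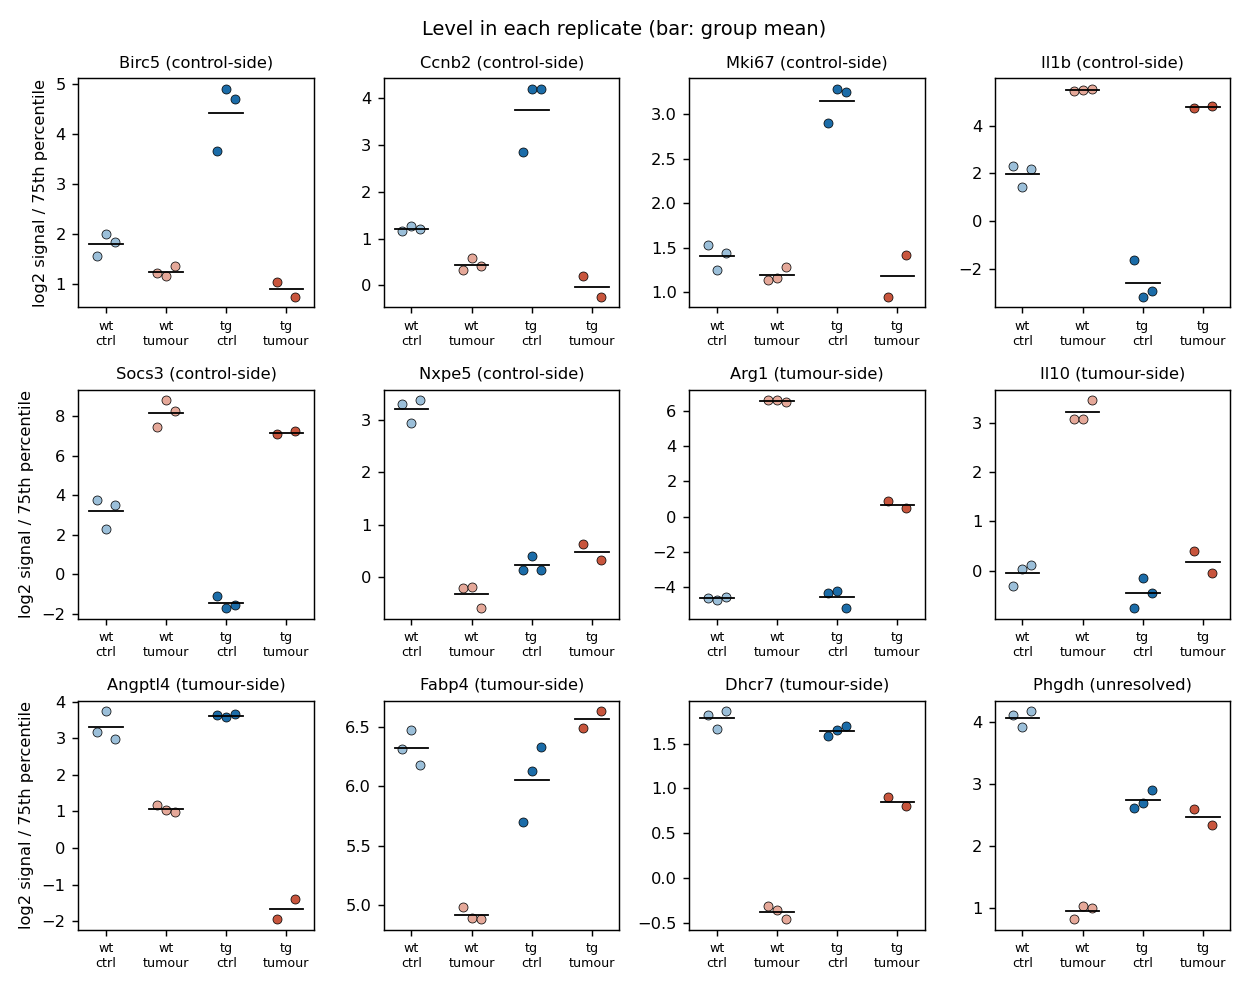
Each panel shows 1 gene's level (log2, scaled to the 75th percentile of the array) in each replicate of the 4 groups, points being replicates (repeat arrays averaged) and bars group means; the panels have their own vertical scales. In Birc5, Ccnb2 and Mki67 the transgenic control group is the highest and in Il1b and Socs3 the lowest, with tumour material Arg1, Il10 and Angptl4 are lower in transgenic than in wild-type replicates, and in Phgdh the transgenic levels lie between the wild-type ones in both media.

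The positive tumour-side genes were higher in transgenic than in wild-type cells with tumour material, most of them by falling less. Fabp4, the fatty acid chaperone of fat cells and macrophages, stood at 6.31, 6.47 and 6.18 in wild-type control, 4.98, 4.89 and 4.88 in wild-type tumour, 5.70, 6.13 and 6.33 in transgenic control and 6.50 and 6.64 in transgenic tumour replicates. It fell by 1.38 in wild-type cells (adjusted p = 9.4e-06), and the transgenic response was 0.48 (adjusted p = 0.0677). The interaction was 1.86 (SE 0.22, adjusted p = 0.00164). Fabp4, Angptl4 and the lipoprotein lipase gene Lpl (1.32, SE 0.29, adjusted p = 0.0464, unresolved) were the called genes among 21 LXR and PPAR targets, and their signs differ.

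Of 25 tested genes of sterol synthesis and its regulator SREBP, 20 fell in wild-type (16.9% of genes tested) and 10 in transgenic cells (10.1%). Their median gap was 0.02 in control medium and 0.83 with tumour material, where 9 of 25 were higher in transgenic cells (1.82% of genes tested) and 0 lower (2.50%). Of the 25 interaction estimates 24 were positive, with a median of 0.85, and 2 passed (0.856% of genes tested were positive). Dhcr7, which makes the last step to cholesterol in one branch of the pathway, stood at 1.82, 1.66 and 1.86 in wild-type control, −0.32, −0.36 and −0.46 in wild-type tumour, 1.58, 1.65 and 1.69 in transgenic control and 0.90 and 0.80 in transgenic tumour replicates. The tumour groups were apart and the controls nearly level, an interaction of 1.44 (SE 0.24, adjusted p = 0.00971), or 0.92 with normexp background correction (adjusted p = 0.0266).

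By replicate, the list median relative to the wild-type control mean was −0.58 in transgenic control replicate 1 and 0.35 and 0.24 in replicates 2 and 3. With tumour material it was −1.37, −1.34 and −1.26 in wild-type and −0.54 and −0.69 in transgenic replicates. Without TFEB-tg control replicate 1 the median interaction was 0.61 and 8 of 25 passed, all positive (3.83% of genes tested), and within slide 2 the median was 0.49. The call of Dhcr7 was lost without TFEB-tg tumour replicate 3 (adjusted p = 0.138) or TFEB-wt tumour replicate 3 (0.118), that of Fabp4 likewise (0.0513 and 0.0506), and that of Lpl without any of 8 (up to 0.377), with normexp background correction (0.0561) and with the median of a gene's probes (0.132). CCAAT was in the windows of 17 of 18 sterol list genes (94.4%), against 42.7% of tested genes. Of the windows of Dhcr7, the one with the most matches is shown over its 100 bases before the start (chr7:143830114-143830213, plus strand), with CCAAT on either strand in capitals.
Dhcr7: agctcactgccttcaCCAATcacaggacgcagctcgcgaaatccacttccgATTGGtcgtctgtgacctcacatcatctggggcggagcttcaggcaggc

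Other positive tumour-side genes of the size ranking differed in how they came apart. Orm2, an acute phase protein, was dim on every wild-type tumour array and stood at 0.23 and 0.43 in transgenic tumour replicates, at least 6.53-fold higher (2.31, SE 0.40, adjusted p = 0.0118). Htra1, a secreted serine protease, fell by 1.81 in wild-type cells, and the transgenic response was 0.14 (1.95, SE 0.38, adjusted p = 0.0229). Aig1, a hydrolase of fatty acid esters, fell by 2.83 in wild-type and by 0.84 in transgenic cells (2.00, SE 0.32, adjusted p = 0.00873). Spaca9 rose by 1.25 in transgenic cells and fell by 0.61 in wild-type ones (1.86, SE 0.24, adjusted p = 0.00225), and Cst7, cystatin F, an inhibitor of lysosomal cathepsins, rose by 1.38 in transgenic cells with a wild-type response of −0.45 (adjusted p = 0.139; interaction 1.83, SE 0.37, adjusted p = 0.0312). All 5 calls were lost without TFEB-tg tumour replicate 3 (adjusted p from 0.104 to 0.569), those of Htra1, Aig1 and Cst7 also without TFEB-wt tumour replicate 3 (0.0843 to 0.242), those of Orm2, Htra1 and Cst7 also without TFEB-tg control replicate 3 (0.0568 to 0.126), and those of Htra1 and Cst7 without TFEB-wt control replicate 1 (0.0613 and 0.0828). Cst7 was lost without 4 further replicates. With normexp background correction the calls of Cst7 (0.319) and Htra1 (0.0605) were lost, and Orm2 was at 1.14 and Aig1 at 1.08 with their calls kept. Fitted to slide 2 alone, Htra1 was at 3.04.

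In the unresolved genes the gap estimates had opposite signs in the 2 media, with both gaps called in some, such as Phgdh. Phgdh, the enzyme that opens serine synthesis and a target of the stress factor ATF4, stood at 4.11, 3.92 and 4.18 in wild-type control and between 0.82 and 1.03 in wild-type tumour replicates, and at 2.61, 2.70 and 2.91, then 2.60 and 2.34 in transgenic ones. Wild-type cells fell by 3.13 (adjusted p = 3.35e-08), the transgenic response was −0.31 (adjusted p = 0.295), and the gap turned from −1.36 (adjusted p = 0.000461) to 1.47 (adjusted p = 0.00134). The interaction was 2.83 (SE 0.25, adjusted p = 0.000265). Chac1, a glutathione-degrading ATF4 target, did the reverse: wild-type replicates stayed between 2.82 and 3.13 in both media, while transgenic ones went from 1.77, 1.97 and 1.98 to 4.09 and 3.93 (1.91, SE 0.18, adjusted p = 0.000388). Asns, the asparagine synthetase, rose by 1.49 in transgenic cells with a wild-type response of 0.20 (1.29, SE 0.19, adjusted p = 0.0052). Of 25 tested ER stress and ATF4 genes these 3 passed, all positive (0.856% of genes tested) and all unresolved. The calls of Phgdh and Chac1 held without any 1 replicate, and that of Asns was lost without TFEB-tg tumour replicate 3 (adjusted p = 0.0884) or TFEB-wt tumour replicate 3 (0.0843).

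H2-DMa and H2-DMb1, which load peptide on MHC class II molecules, were unresolved as well. H2-DMa stood at 3.17, 3.26 and 3.39 in wild-type control, 1.67, 1.73 and 1.38 in wild-type tumour, 2.21, 1.59 and 1.95 in transgenic control and 1.98 and 2.20 in transgenic tumour replicates. It fell by 1.75 in wild-type cells (adjusted p = 3.63e-06), the transgenic response was 0.29 (adjusted p = 0.331), and the interaction was 2.04 (SE 0.25, adjusted p = 0.00188). H2-DMb1 behaved alike, at 1.65 (SE 0.24, adjusted p = 0.00472). All 9 tested MHC class II genes had a positive estimate, and 2 passed (0.856% of genes tested were called positive). The list median was 1.51, with a median gap of −1.55 in control medium and −0.11 with tumour material. The antigen-presenting chain H2-Aa did not pass (1.97, SE 1.11, adjusted p = 0.546). It stood at 4.99, 4.96 and 4.95 in wild-type control but at −0.06 in transgenic control replicate 1 and at 3.94 or above in replicates 2 and 3, so replicate 1 sets its spread. Without that replicate H2-Aa passed (1.07, adjusted p = 0.00773), 7 of 9 list genes did (3.83% of genes tested were then positive), and the median was 1.07. The calls of H2-DMa and H2-DMb1 were lost without TFEB-tg tumour replicate 3 (adjusted p = 0.0614 and 0.0884) or TFEB-wt tumour replicate 3 (0.054 and 0.106).

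Ednrb, an endothelin receptor, fell by 2.83 in wild-type cells, with a transgenic response of 1.54 (adjusted p = 0.068; interaction 4.36, SE 0.71, adjusted p = 0.00873). Gbp8, a guanylate-binding protein (3.55, SE 0.70, adjusted p = 0.0258), and Relt, a TNF receptor family member (3.25, SE 0.63, adjusted p = 0.0234), had lower values. Gbp8 was dim on every wild-type tumour array, at least 2.15-fold below wild-type control, and Relt was dim on every transgenic control array and at least 6.63-fold higher with tumour material. Lck, the Src family kinase known from T cells, was at −0.35, −0.45 and −0.85 in wild-type control, −1.62, −1.59 and −1.86 in wild-type tumour, −2.01, −1.12 and −1.44 in transgenic control and −0.69 and −0.39 in transgenic tumour replicates (2.47, SE 0.35, adjusted p = 0.00417). Of the other T and NK cell markers Cd3d, Cd3g, Cd8a, Ncr1 and Prf1 were above background nowhere. In control medium only 1 of the tested markers was estimated higher in transgenic cells, with a median gap of −0.24, so the sum below is not shared by them. With tumour material every tested marker was estimated higher, with a median gap of 1.08. The summed level of the 10 markers on the array was 5.10 to 8.27 in wild-type replicates, 7.14, 21.2 and 21.4 in transgenic control and from 9.11 upward in transgenic tumour replicates. The 4 calls were lost without TFEB-tg tumour replicate 3 (adjusted p from 0.127 to 0.638), those of Ednrb, Relt and Lck also without TFEB-wt tumour replicate 3 (0.0812 to 0.256), that of Relt without 5 others and that of Gbp8 without 3 others, up to 0.0684. Another probe of Ednrb gave 2.31, and with the median of its probes its call was lost (3.33, adjusted p = 0.0859). Gbp8 was at 1.11, Relt at 1.19 and Lck at 1.23 with normexp background correction, and kept their calls. The calls of Gbp8 (adjusted p = 0.164 by limma) and Relt (0.0612) were lost with slide column 4 as a further term, and that of Gbp8 also with array weights (0.0966).

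Iqgap3, a scaffold protein of dividing cells, and Mybl2, the B-Myb factor of late S phase, were negative unresolved genes. Iqgap3 stood at 0.69, 1.52 and 1.71 in transgenic control, −2.08 and −2.33 in transgenic tumour and between −1.39 and −0.92 in all wild-type replicates, a response in transgenic cells only (interaction −3.81, SE 0.40, adjusted p = 0.000809). Mybl2 rose in wild-type cells by 1.17, from 0.22, 0.48 and 0.49 to 1.63 at the highest, and fell in transgenic ones from 1.78, 2.84 and 2.44 to 0.85 and 0.59 (−2.96, SE 0.31, adjusted p = 0.000809). Both calls held without any 1 replicate, and Iqgap3 was at −2.15 with normexp background correction. Without TFEB-tg control replicate 1 both genes became control-side.

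Several smaller unresolved values came from the gene lists. Gstm1, a glutathione transferase (1.09, SE 0.18, adjusted p = 0.00869), and Spp1, osteopontin (1.47, SE 0.31, adjusted p = 0.035), fell in wild-type cells by 1.66 and 0.91. Socs2 (1.63, SE 0.33, adjusted p = 0.0315), which damps growth hormone signalling, was dim in both control groups, and its other probes reach −0.62. The lectin Mgl2 (−1.01, SE 0.23, adjusted p = 0.0494) and the Fc receptor Fcgr4 (−1.19, SE 0.24, adjusted p = 0.0308) rose in wild-type cells by 3.09 and 1.39. The Gstm1 call was lost without TFEB-tg tumour replicate 3 (adjusted p = 0.18) or TFEB-wt tumour replicate 3 (0.106), and those of Spp1, Socs2, Mgl2 and Fcgr4 without any of 7 or more replicates (up to 0.333, 0.301, 0.242 and 0.238). Mgl2 was lost with normexp background correction too (0.166), and Socs2 was at 0.87 with it and at 0.51 with the median of its probes (adjusted p = 0.695).

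Of 15 tested markers of alternative activation, 1 had a positive and 2 a negative interaction (0.856% and 0.803% of genes tested): Socs2, Arg1 and Mgl2. The mannose receptor Mrc1 fell by 1.77 in wild-type cells, from 5.33, 5.08 and 5.25 to 3.60, 3.63 and 3.29, and stood at 4.07, 5.19 and 4.97, then 4.38 and 4.32 in transgenic ones. Its interaction of 1.36 (SE 0.36) had an adjusted p of 0.0962. It passed without TFEB-tg control replicate 1 (1.14, adjusted p = 0.00448) or replicate 2 (0.0254). The chitinase-like Chil3 was at −0.56 (SE 0.61, adjusted p = 0.813). The list thus holds values of both signs, and its median was 0.67.

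The genes usually placed under TFEB had few or no calls. Over all genes tested, 1.66% had a called interaction. Of 44 tested lysosomal hydrolases and membrane proteins 0 passed by limma (9 positive and 0 negative at an unadjusted p under 0.05), and 39 estimates were positive, with a median interaction of 0.32 (0.30 without TFEB-tg control replicate 1, 0.25 within slide 2). Their median gap was −0.19 in control medium and 0.16 with tumour material, and 18 of the 44 fell in wild-type (16.9% of genes tested) and 7 in transgenic cells (10.1%). V-ATPase subunits, the proton pump that acidifies lysosomes, had 0 calls of 16 (3 at an unadjusted p under 0.05) and a median of 0.19. Autophagy genes had 0 of 32 (3 at an unadjusted p under 0.05) and −0.06. Without TFEB-tg control replicate 1 these lists had 3, 1 and 1 calls (7.11% of genes tested passed then). Gpnmb (0.48, SE 0.18, adjusted p = 0.265) and Sqstm1, the autophagy receptor p62 (0.13, SE 0.28, adjusted p = 0.916), did not pass. By limma, interferon-stimulated genes had 0 calls of 33 (median 0.14), MHC class I genes 0 of 15 (0.21), immediate early factors 0 of 21 (−0.15), iron handling genes 0 of 12 (−0.13), and D-type cyclins and CDK inhibitors 0 of 8 (0.07). At an unadjusted p under 0.05 those 5 lists had 3, 0, 5, 0 and 3 genes. SOCS, JAK and STAT genes had 2 of 18, both SOCS genes named above, NRF2 targets 1 of 21, Gstm1, and scavenger and phagocytic receptors 1 of 14, Fcgr4. The iron exporter Slc40a1 was higher in transgenic cells by about the same in both media, 1.28 and 1.06, and its interaction was −0.23 (SE 0.18, adjusted p = 0.712). The peroxidase Gpx3 stood at 4.78 in transgenic control replicate 1 and 1.91 and 1.85 in replicates 2 and 3 (interaction −1.46, SE 0.82, adjusted p = 0.541). CACGTG, the E-box that TFEB binds, was in the windows of 3 of 22 negative and 2 of 31 positive control-side genes and of 2 of 29 negative and 2 of 27 positive tumour-side genes, from 6.5% to 13.6%, beside 12.1% of tested genes.

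**Figure D5:**
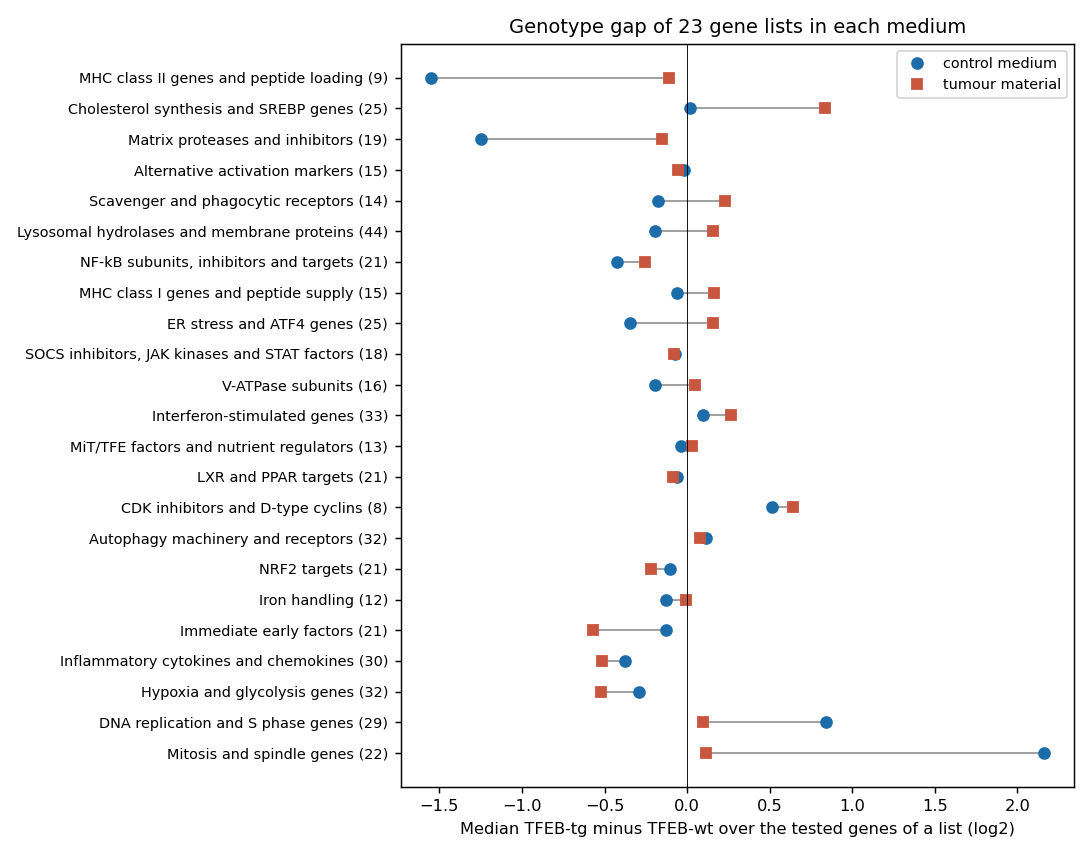
For each of 23 gene lists (tested genes in parentheses), the median TFEB-tg minus TFEB-wt difference (log2) is plotted for control medium (circles) and tumour material (squares), ordered by the median interaction of the list. Mitosis genes have the widest span, from 2.16 to 0.12, MHC class II genes run from −1.55 to −0.11, and sterol genes from 0.02 to 0.83.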

How the data were processed

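Members and gene lists were chosen with earlier results of these data known. RNA of 14 single-colour Agilent arrays was quantified, per the file headers, by Feature Extraction 10.7.3.1, and the deposited scanner files give intensity per spot. Control spots and outlier flags were removed, spots of a probe averaged, and log2 of the processed intensity was taken relative to the 75th percentile of each array. The authors' deposited series matrix holds log2 values and served as an alternative. Probes were kept where some group had every array above background, leaving 20208 probes and 17178 genes. A probe with no symbol counted as a gene of its own.

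limma 3.58.1 (R 4.3.3) fitted 4 group means and the slide, with arrays of the same replicate (Rep_3 and Rep_3-2, read as repeats) as a random block (within-replicate correlation 0.061, so a repeat array counts nearly as a separate sample; averaging repeat arrays first was an alternative). The scripts were tested on simulated data. The deposited files hold no mean signal, so normexp used the median signal intensity. Named genes were, with a symbol and above background in at least 2 groups, the 6 largest interactions per side and sign (3 if unresolved), up to 3 called genes per list, and 20 fixed genes. The number of arrays limits the precision. Promoters are RefSeq windows of GRCm38.p6, and no coordinates of the array's own build are given. Some genes that this rule names are not reported here.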

Additional observations from a re-analysis of the deposited data

Results flagged for a closer look

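Genes named by rule whose response to tumour material differed between the genotypes by the test of the difference itself (limma interaction, adjusted p under 0.05) are listed with that difference, transgenic minus wild-type, on the log2 scale. Among cell division and replication genes it was −3.16 for Birc5, −3.14 for Ccnb2, −3.07 for Ccna2, −1.73 for Mki67 and −3.50 for Ska1. In the same group it was −2.21 for Chtf18, −2.06 for Sgo1, −2.06 for Rrm2, −2.06 for Mcm7, −3.81 for Iqgap3 and −2.96 for Mybl2. Of cytokines, their regulators and surface receptors, Il1b had 3.94, Socs3 3.62, Socs2 1.63, Cd40 1.35, Relt 3.25, Ly6a 3.19, Il10 −2.82, Csf3 −1.70, Fcgr4 −1.19, Mgl2 −1.01 and Ednrb 4.36. The difference was −5.72 for Arg1, −4.48 for Lum, −2.91 for Angptl4, −1.74 for Bnip3, −3.32 for H19, −2.44 for Myh3 and −2.32 for Chrna1. Lipid and sterol genes had 1.86 for Fabp4, 1.32 for Lpl, 1.44 for Dhcr7 and 2.00 for Aig1. Amino acid and redox genes had 2.83 for Phgdh, 1.91 for Chac1, 1.29 for Asns and 1.09 for Gstm1. Proteases, inhibitors and matrix genes had 1.79 for Mmp12, 1.73 for Mmp14, 1.95 for Htra1, 3.99 for Spint1, 1.83 for Cst7 and 1.47 for Spp1. The others were Mns1 at −2.27, H2-DMa at 2.04, H2-DMb1 at 1.65, Lck at 2.47, Mitf at 0.76, Nxpe5 at 3.83, Flrt3 at 2.90, Orm2 at 2.31, Spaca9 at 1.86 and Gbp8 at 3.55.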

How the results depend on the processing

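The 285 interaction genes, 73 control-side and 90 tumour-side, varied widely between settings. Leaving out 1 replicate gave 44 to 1221 genes, 8 to 459 control-side and 13 to 263 tumour-side. The lowest total came without TFEB-tg tumour replicate 3, where the lone sample left is assumed to vary like the other groups, and the highest without TFEB-tg control replicate 1. Slide 2 alone gave 0, 0 and 0 by limma (1442 genes at an unadjusted p under 0.05). Leaving out the arrays of slide column 4 gave 820 genes and 316 control-side, and column 4 as a further term 47 control-side and 51 tumour-side. No filter on dim probes gave 159, 44 and 49, averaging repeat arrays 77, 15 and 26, and array weights 709, 219 and 166, in the order total, control-side and tumour-side. The replicate block nested in genotype gave 1250, 289 and 345, and the replicate block across genotypes 272, 69 and 73. Same-numbered samples correlated between −0.18 and 0.20 in their deviations from the group means. With so few replicates per group, that check cannot settle whether the numbers pair the samples. Apart from the fewer samples or genes of some settings, the cause was not tested.

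Among named genes signs turned only where no call was made. Of the 285 genes, 284 kept their sign with normexp background correction (A_30_P01031585, a probe with no symbol, turned) and 284 with the median of a gene's probes (Arl6ip6 turned), 199 of 200 measured did with probes above background on every array (C8g turned), and all did in the other alternatives. Without the column 4 arrays Tfe3 was at −0.246, Chil3 at 0.064 and Nos2 at 0.017. Nos2 was at 0.362 on slide 2 and 0.194 with the replicate block nested in genotype, and Sqstm1 at −0.046 with no slide term. With 1 replicate left out, Tfe3 ran from −0.284 (TFEB-wt tumour replicate 3) to 0.858, Nos2 from −0.915 to 0.023 (TFEB-tg control replicate 1) and Sqstm1 from −0.259 (TFEB-tg control replicate 3) to 0.319. Over the 68 genes the rule gives and 25 alternatives, 1293 values kept their direction and side of the threshold, 366 lost a call and 11 gained one. The 366 include losses in the fit to slide 2 alone, whose spread does not measure that between replicates.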
